A study of Mus musculus with 8 samples.

Results

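The effect of a conditional Bcl6 deletion label was compared between cultured and freshly sorted mouse thymocytes, gene by gene, as the change in vivo minus the change in vitro. All 8 libraries of the series entered the comparison, and 9364 genes were tested of the 11725 that have a row in both systems. A gene entered when its deposited FPKM was at least 1 in at least 2 libraries of each system. A gene below 1 under 1 label could thus enter through the other label, which favours a large change in such genes. The question was which functions moved with the Bcl6 label alike in both systems, in 1 system only, or in opposite directions.

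The 4 groups hold 2 libraries each. The WT label is Bcl6fl/fl, loxP-flanked Bcl6 with no Cre named, and the KO label is Bcl6fl/fl Cd4cre, so both arms carry the floxed alleles. In vitro, double-positive (CD4+CD8+) thymocytes were stimulated in culture for 24 h with antibodies to CD3 and CD28 at 8 µg/ml each, after which the double-negative (DN) fraction was collected by sorting. In vivo, CD4-CD8-CD5+TCRb+ thymocytes, which the labels call agonist-p, were sorted directly. The Cd4 promoter is known to drive Cre from the double-positive stage onward, and Bcl6 loss itself was not measured here. The in vitro libraries were made by Novogene and the in vivo libraries by BGI Genomics, so levels cannot be compared between systems apart from the vendor, whereas each KO-against-WT change lies within a vendor. Ages are not given, and nothing says that the replicates came from separate animals, so p-values reflect variation among these particular samples only, and that variation may be technical.

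BCL6 is a zinc-finger repressor that recruits corepressor complexes to DNA sites shared in part with STAT proteins. In the thymus, cells that receive strong signals through the T cell receptor (TCR) at the double-positive stage can be diverted to agonist-selected fates, among them precursors of intraepithelial lymphocytes (IEL). Strong TCR signals induce the NR4A and EGR transcription factors and inhibitory receptors such as PD-1, while KLF2 and its target S1PR1 mark cells that are ready to leave the thymus.

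Total counts ran from 14754440 to 23975636 per library, and 96.8% to 99.3% of them fell in the tested genes. The Bcl6 transcript itself was at 173 and 152 CPM (counts scaled to a common library size) in WT-labelled and 456 and 429.7 in KO-labelled libraries in vitro. In vivo it was at 82.1 and 96.6 and at 62.9 and 102. It therefore rose in vitro by 1.44 (SE 0.09, adjusted p = 1.03e-06) and stood at -0.13 (SE 0.21, adjusted p = 0.895) in vivo, a difference of -1.56 (SE 0.25, adjusted p = 0.00329). The deposited values pool all exons of a gene and cannot show whether the floxed exons were lost, and the text therefore speaks of libraries labelled KO or WT. Cd4 and Cd8a, which the sorts select against as surface proteins, had transcripts in every library (Cd4 at 115 and 230.1 CPM under the WT label in vivo). Markers of 3 other cell types differed widely in level. The summed CPM of B cell markers, of which 9 of 11 had a row in vivo and 5 in vitro, was 319 and 94.2 in WT-labelled and 886 and 307 in KO-labelled libraries. In vitro it was 10.9 to 12.9, with no row for Ms4a1 or Pax5. Myeloid markers (11 of 11 with a row in vivo, 4 in vitro) summed to 225 and 136 against 465 and 217 in vivo, and to 60.7 to 65.4 in vitro. Innate-like T and NK markers (9 of 9 with a row in vivo, 2 in vitro) summed to 1616 and 1080 against 1814 and 1570 in vivo and to at most 6.03 in vitro. The first KO library in vivo was the highest and the second WT library the lowest in all 3 sums; results that move without these libraries are given with both values. In these bulk samples fewer cells of a type and less RNA per cell cannot be told apart.

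The Bcl6 label moved far more genes in vitro than in vivo, and for most genes the systems could not be shown to differ. Calls are at an adjusted p (Benjamini-Hochberg over the 9364 genes) below 0.05 in edgeR's quasi-likelihood test, and changes are log2 fold changes, KO label over WT label, with their standard error (SE). In vitro 1921 genes rose (20.5% of those tested) and 1673 fell (17.9%), 38.4% in all. In vivo 18 rose (0.192%) and 81 fell (0.865%), 1.06% in all. The change differed between systems for 1534 genes (16.4%), being higher in vivo for 615 (6.57%) and lower in vivo for 919 (9.81%). At an unadjusted p under 0.05 the counts were 4446 in vitro, 1174 in vivo and 3011 for the difference. The 95% interval of the difference lay within 2-fold either way for 7631 genes (81.5%). For these genes a difference of 2-fold or more lies outside the interval, and most of them were called in neither system.

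Genes called in both systems mostly moved together. Of the 81 genes that fell in vivo, 43 (53.1%) fell and 12 (14.8%) rose in vitro. Of the 18 that rose in vivo, 15 (83.3%) rose and 0 fell in vitro. In all, 58 genes (0.619%) moved in the same direction in both systems and 12 (0.128%) in opposite directions. A change called in vitro, with the difference also called and an unadjusted p of at least 0.05 in vivo, was found for 1089 genes (11.6%), here called in vitro only. The mirror class, in vivo only, held 22 genes (0.235%). A further 2164 genes were called in vitro and not in vivo while the difference did not pass, so the in vivo changes of those genes were neither shown nor shown to be absent. The signs of the changes matched at 4736 genes (50.6%). Across the 9364 genes Pearson's r between the changes was 0.231 and Spearman's rank correlation 0.0748, as a description, since genes are not independent replicates.

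**Figure D1:**
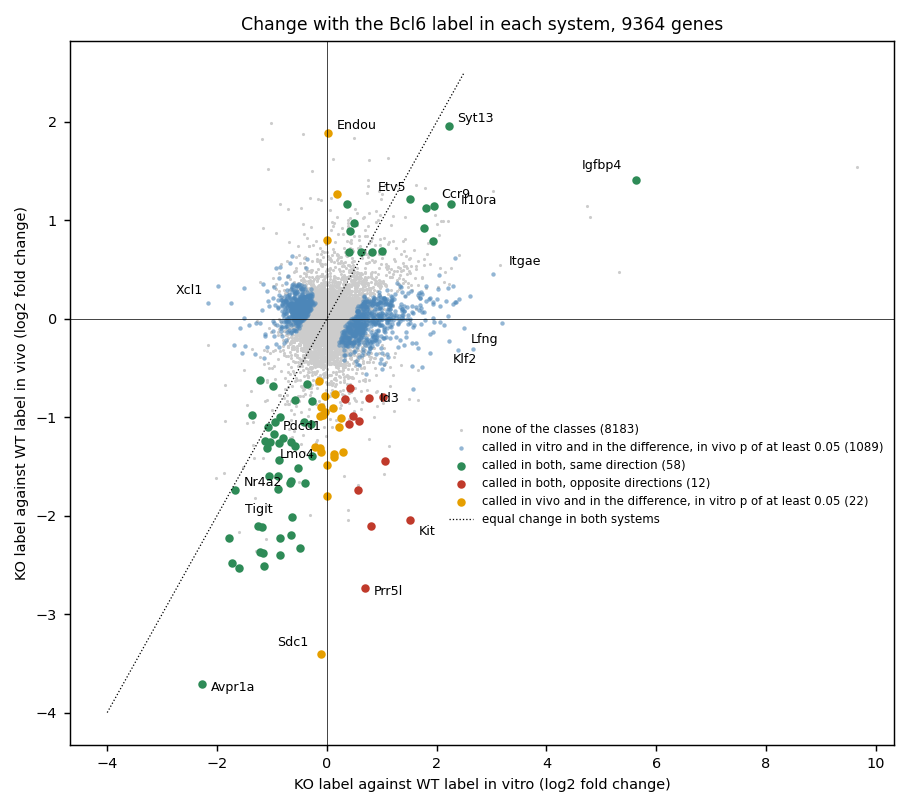
Each point is a gene, with its log2 fold change between the KO and WT labels in vitro on the horizontal axis and in vivo on the vertical axis, coloured by class, and the dotted line marks equal change. The 58 genes called in both in the same direction lie in the lower left and upper right, the 12 opposite genes all lie in the lower right, and the 1089 in vitro only genes lie along the horizontal axis.

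Genes with large changes in vitro had smaller ones in vivo at the median. The 313 genes that rose at least 2-fold in vitro had a median in vivo change of 0.19 on the log2 scale, 73.5% of them above 0, and 249 had a difference called lower in vivo. The 81 that fell at least 2-fold in vitro had a median in vivo change of -0.52, and 17 of them fell in vivo. Both sets were picked by a large in vitro change, which favours a smaller value in the other system. The difference contains that same in vitro change, so its calls in these sets are no separate evidence. Of the 43 genes that fell in both systems the difference was called for 17, lower in vivo for 16 and higher for 1, and of the 15 that rose in both it was called for 7, lower for 5 and higher for 2. A gene enters these sets only with a change large enough to be called in vivo, where SEs were larger, so the sizes in the 2 systems are not compared further. Counts rested on single libraries. Without WT replicate 2 in vivo 19 genes were called in vivo, with 13 in the same direction, 4 opposite and 2 in vivo only, and without KO replicate 2 in vivo 374 were called, with 188, 64 and 74. The difference count was 533 without WT replicate 1 in vitro, 773 and 851 without either KO library in vitro, and 832 without KO replicate 1 in vivo. All 99 genes called in vivo and all 1534 called for the difference kept their sign in every fit that included them.

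Promoter sequence was read for the classes, whose members share a pattern of calls across the systems but not always a direction. RefSeq promoter windows of build GRCm38.p6 (mm10) were matched by symbol for 7644 of the 9364 tested genes, and the 250 bases before each start were searched on both strands. The BCL6 core TTCCTNGAA, a subset of the STAT-type motif TTCNNNGAA, was present for 90 of 7644 genes (1.18%). It was present for 10 of 864 in vitro only genes (1.16%), 4 of 459 of those that rose, and 0 of 47 and 0 of 11 same-direction and opposite genes. The broader TTCNNNGAA was present for 7.10% of all, 8.22% of in vitro only and 8.51% of same-direction genes, and the NR4A motif AAAGGTCA for 1.09% of all, 1.04% of in vitro only and 0 of 47 same-direction genes. A heat shock element (GAA, TTC and GAA in a row, each separated by 2 bases of any kind) was present for 0.471% of all genes and for 3 of 14 heat shock chaperones with a window. In the whole table of 32851 windows the shares were 1.31% for TTCCTNGAA, 7.02% for TTCNNNGAA, 1.34% for AAAGGTCA and 0.466% for the heat shock element. A match describes letters in this window and is not a bound site. The sequences below were chosen after the values were seen. They are the transcript under study, which rose in vitro, and a gene listed with egress and late maturation genes. The others are a gene that fell in both systems and a chaperone that fell in vitro. Each runs 5' to 3' on the gene's strand and stops before annotated exons, with the match in capitals.
Bcl6, chr16:23981284-23981533, minus strand, before a start inside the gene, TTCCTNGAA: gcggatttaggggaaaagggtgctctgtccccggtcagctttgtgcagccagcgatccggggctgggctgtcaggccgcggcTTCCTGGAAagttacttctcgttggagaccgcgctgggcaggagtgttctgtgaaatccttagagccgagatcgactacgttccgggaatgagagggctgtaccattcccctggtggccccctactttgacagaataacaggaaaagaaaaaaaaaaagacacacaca
Gimap8, chr6:48647286-48647360, plus strand, TTCCTNGAA: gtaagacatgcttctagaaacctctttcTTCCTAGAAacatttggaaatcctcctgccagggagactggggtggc
Cd160, chr3:96814522-96814771, minus strand, TTCNNNGAA: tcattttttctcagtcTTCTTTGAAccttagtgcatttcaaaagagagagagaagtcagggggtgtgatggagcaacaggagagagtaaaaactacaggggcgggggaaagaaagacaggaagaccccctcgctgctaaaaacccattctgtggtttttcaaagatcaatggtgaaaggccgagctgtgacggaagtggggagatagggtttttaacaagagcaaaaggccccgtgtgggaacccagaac
Hspe1, chr1:55088025-55088131, plus strand, between the exons of Hspe1 and its head-to-head neighbour Hspd1, 2 overlapping heat shock element matches: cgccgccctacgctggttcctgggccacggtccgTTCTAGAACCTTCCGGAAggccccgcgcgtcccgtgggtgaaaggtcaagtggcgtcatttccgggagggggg

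The Bcl6 window belongs to the gene that rose in vitro with no change called in vivo, and the Cd160 window to the inhibitory receptor that fell in both systems. The Gimap8 window belongs to a GTPase listed with egress and late maturation genes, with a difference of -0.82 (SE 0.17, adjusted p = 0.00959). Hspe1, the cochaperonin HSP10, shares its printed stretch with Hspd1 and moved with it, by -0.58 (SE 0.09, adjusted p = 0.00039) in vitro and 0.14 (SE 0.12, adjusted p = 0.752) in vivo, a difference of 0.74 (SE 0.16, adjusted p = 0.0122).

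Genes that fell under the KO label in both systems included 4 coinhibitory receptors and Nr4a2. Nr4a2, an orphan nuclear receptor induced by TCR signals (chromosome 2, 57106830 to 57124003, mm10), was at 462 and 464 CPM in WT-labelled and 141 and 148 in KO-labelled libraries in vitro. In vivo the values were 83.4 and 112 against 25 and 34.4. In each system both WT libraries lay above both KO libraries. Nr4a2 fell by 1.67 (SE 0.08, adjusted p = 4.84e-07) in vitro and by 1.74 (SE 0.20, adjusted p = 0.016) in vivo, with a difference of -0.04 (95% interval -0.52 to 0.44, adjusted p = 0.921). The difference comes from a joint fit of the 8 libraries and need not equal the gap between the single-system values. Pdcd1, which encodes the inhibitory receptor PD-1 (chromosome 1, 94038305 to 94052553), was at 1095 and 1063 against 503 and 605 CPM in vitro and at 320.2 and 357 against 159 and 146 in vivo. Its KO libraries lay below both WT libraries in each system. It fell by 0.96 (SE 0.11, adjusted p = 7.78e-05) in vitro and by 1.17 (SE 0.12, adjusted p = 0.0095) in vivo, and the difference was -0.19 (95% interval -0.55 to 0.17, adjusted p = 0.452).

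Among coinhibitory receptors, surface proteins that restrain T cell activation, 8 of 11 listed members were tested. In vitro 5 fell and 2 rose (17.9% and 20.5% of all genes), and in vivo 4 fell and 0 rose (0.865% and 0.192% of all genes). The median was -0.71 in vitro and -0.71 in vivo against -0.00264 and -0.00169 over all genes. Pdcd1, Lag3, Tigit and Cd160 fell in both; without WT replicate 2 in vivo 2 of the 4 were still called there. Tigit, a receptor for poliovirus-receptor family ligands, was at 64.3 and 68.0 against 39.6 and 45.5 CPM in vitro and at 20.6 and 27.8 against 5.80 and 6.34 in vivo. The in vivo fall was the larger, -2.01 against -0.63, a difference of -1.36 (SE 0.22, adjusted p = 0.00298) that was called in every alternative that refitted it. Lag3, which binds MHC class II, was at 40.2 and 35.6 against 14.7 and 27.0 CPM in vitro and at 27.2 and 31.9 against 6.15 and 6.61 in vivo. Its in vivo values fell further too, with a difference of -1.35 (SE 0.34, adjusted p = 0.0212), but that call was lost without any single in vitro library other than KO replicate 1, without KO replicate 1 in vivo, and with limma voom (adjusted p up to 0.0688 over all alternatives). Cd160, a receptor for HVEM, went the other way in size, at 118 and 98.8 against 46.9 and 46.5 CPM in vitro and at 126 and 126 against 84.2 and 81.3 in vivo. The difference of 0.60 (SE 0.14, adjusted p = 0.0154) was lost without WT replicate 1 or either KO library in vitro and without KO replicate 1 in vivo (adjusted p up to 0.087). Cd200 was at -0.79 (SE 0.15, adjusted p = 0.00192) in vitro and -0.80 (SE 0.29, adjusted p = 0.309) in vivo, and Ctla4 rose in vitro by 0.68 (SE 0.24, adjusted p = 0.0439) and stood at -0.27 (SE 0.41, adjusted p = 0.89) in vivo. The summed CPM of 7 regulatory T cell markers went from 1487 and 1639 to 1087 and 1034 in vitro and from 977 and 1426 to 721 and 834 in vivo. Most of that sum was Ikzf2 (1346 of 1487 and 1486 of 1639 in the WT-labelled libraries in vitro), while Izumo1r went from 24.7 and 28.5 to 79.9 and 81.5 in vitro, and Foxp3 was at 38.8 and 82.0 against 15.9 and 65.1 in vivo with overlapping labels. The part of these markers in the result was not tested.

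The rest of the TCR response was mixed, and most of its tested genes had no called difference between the systems. Of 21 TCR early response factors tested, 8 fell and 3 rose in vitro (17.9% of all genes fell and 20.5% rose), and 1 fell in vivo. The change differed for 3 in each direction, 28.6% against 16.4% of all genes (median -0.17 in vitro and -0.15 in vivo). Nr4a1 stood at -0.66 in vitro (called) and -0.83 in vivo (adjusted p = 0.268), with the in vivo values 506 and 576 against 206 and 409 CPM wide apart within the KO label. Junb, an AP-1 subunit, had nearly equal values of -0.59 and -0.64, called in vitro only by its own test. Nr4a3 stood at -1.21 (SE 0.10, adjusted p = 7.53e-06) in vitro and -0.39 (SE 0.35, adjusted p = 0.759) in vivo, Egr2 at 0.19 (SE 0.09, adjusted p = 0.11) and -0.41 (SE 0.15, adjusted p = 0.329), and the Helios gene Ikzf2 at -0.69 (SE 0.11, adjusted p = 0.000537) and -1.12 (SE 0.23, adjusted p = 0.0952). Egr3 differed between systems, at 30.4 and 27.5 against 94.0 and 92.4 CPM in vitro and 130.2 and 125 against 137 and 138 in vivo. It rose in vitro by 1.68 (SE 0.09, adjusted p = 6.46e-07) and stood at 0.09 (SE 0.09, adjusted p = 0.793) in vivo, with a difference of -1.58 (SE 0.12, adjusted p = 0.000151). Irf4 and Myc fell in vitro and were not called in vivo, with differences of 0.98 (SE 0.21, adjusted p = 0.0121) and 0.67 (SE 0.14, adjusted p = 0.0103). Of 20 feedback phosphatases and inhibitors of TCR signal, 8 fell and 3 rose in vitro and 1 fell in vivo. The change differed for 1, 5% against 16.4% of all genes (median -0.19 in vitro and -0.15 in vivo). The MAP kinase phosphatases Dusp4 (-0.97 and -1.03) and Dusp1 (-0.69 and -0.87) and the RAS-pathway inhibitor Spry1 (-1.45 and -1.06) had similar values in both systems. All 3 passed in vitro and none passed in vivo. Without KO replicate 2 in vivo 6 early response factors and 5 feedback genes fell in vivo, so the in vivo counts of these lists rest on that library.

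Of the 58 genes that moved in the same direction, 34 had no call for the difference, and for 20 of those (34.5%) the interval also lay within 2-fold. Those 20 are the genes for which alike is bounded by the data, 14 that fell and 6 that rose. Besides Nr4a2 and Pdcd1, the fallers included the Kruppel-like factor Klf9 (-1.07 and -1.09, difference 0.00, 95% interval -0.43 to 0.43, adjusted p = 0.995), the myosin Myo1e (-1.03 and -1.25), the muscle-type enolase Eno3 (-1.08 and -1.31) and the lymphocyte adhesion receptor Crtam (-1.12 and -1.24). The risers included the ETS factor Etv5, the cadherin Celsr1 (0.62 and 0.68) and the adenosine deaminase Ada (0.49 and 0.98). The Ada difference of 0.50 had a 95% interval of 0.05 to 0.96, close to 2-fold at its upper end and above 0 at its lower. These genes were named after their values were seen.

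By the largest of the smaller change, the leading fallers in both systems were Avpr1a, Epdr1, Itgb8, Nr4a2 and Tmem158. In vivo Avpr1a and Epdr1 were below an FPKM of 1 in both KO libraries and entered through the WT libraries alone. Itgb8, the integrin chain that activates latent TGF-beta, was at 128 and 149 against 43.5 and 48.1 CPM in vitro and at 42.0 and 84.7 against 10.4 and 11.8 in vivo. No KO library reached a WT library, and the WT replicates in vivo stood 2-fold apart. It fell by 1.59 (SE 0.10, adjusted p = 1.03e-06) and 2.53 (SE 0.33, adjusted p = 0.0196), with a difference of -0.92 (SE 0.36, adjusted p = 0.107). Tmem158 stood at -1.78 and -2.22, and Epdr1 at -1.73 and -2.48. Avpr1a, the vasopressin 1a receptor, was at 53.6 and 63.7 against 9.37 and 14.6 CPM in vitro. In vivo it had 140 counts in WT-labelled and 10 in KO-labelled libraries, a WT-to-KO ratio of 13.2 (95% counting interval 6.97 to 28.2), and the size of its difference, -1.42 (SE 0.61, adjusted p = 0.139), depends on how low values are treated. On log2(FPKM + 1) with limma that difference turned to 0.895 with an adjusted p of 0.0469.

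The leading risers in both systems were Igfbp4, Ccr9, Il10ra, Syt13 and Etv5. In vitro Igfbp4 and Syt13 were below an FPKM of 1 in both WT libraries and entered through the KO libraries alone. Ccr9, the receptor that draws T cells to the gut and thymus (chromosome 9, 123678439 to 123784330), was at 176 and 232 against 863 and 716 CPM in vitro and at 137 and 157 against 290.5 and 369.9 in vivo. The KO libraries lay above the WT libraries in both systems, more so in vitro, where the rise was 1.96 (SE 0.14, adjusted p = 1.98e-06) against 1.15 (SE 0.15, adjusted p = 0.0195) in vivo. That difference of -0.79 (SE 0.22, adjusted p = 0.036) was lost without 5 of the 8 libraries, namely WT replicate 1 or either KO replicate in vitro and WT replicate 2 or KO replicate 1 in vivo (adjusted p up to 0.151). Il10ra, the interleukin-10 receptor chain, was at 3.63 and 5.71 against 22.1 and 21.7 in vitro and 50.3 and 39.4 against 90.6 and 112 in vivo, rising by 2.27 and 1.16. Its difference of -1.09 (SE 0.27, adjusted p = 0.0198) was lost without WT replicate 1 or either KO replicate in vitro, without KO replicate 1 in vivo, and on log2(FPKM + 1). Etv5 was at 18.6 and 19.6 against 55.8 and 53.4 in vitro and 29.7 and 25.8 against 73.5 and 57.1 in vivo, with a difference of -0.29 (95% interval -0.69 to 0.12, adjusted p = 0.316). Syt13, a synaptotagmin family member, rose by 2.22 and 1.96 at low levels. Igfbp4, a binding protein of insulin-like growth factors, had 7 counts in the WT-labelled and 343 in the KO-labelled libraries in vitro, 50.9 times as many after scaling (95% counting interval 24.4 to 127.5). In vivo it was already at 107 and 96.1 CPM in WT-labelled and 292 and 253 in KO-labelled libraries, and the fitted difference on log2(FPKM + 1) was -0.15 and was not called.

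**Figure D2:**
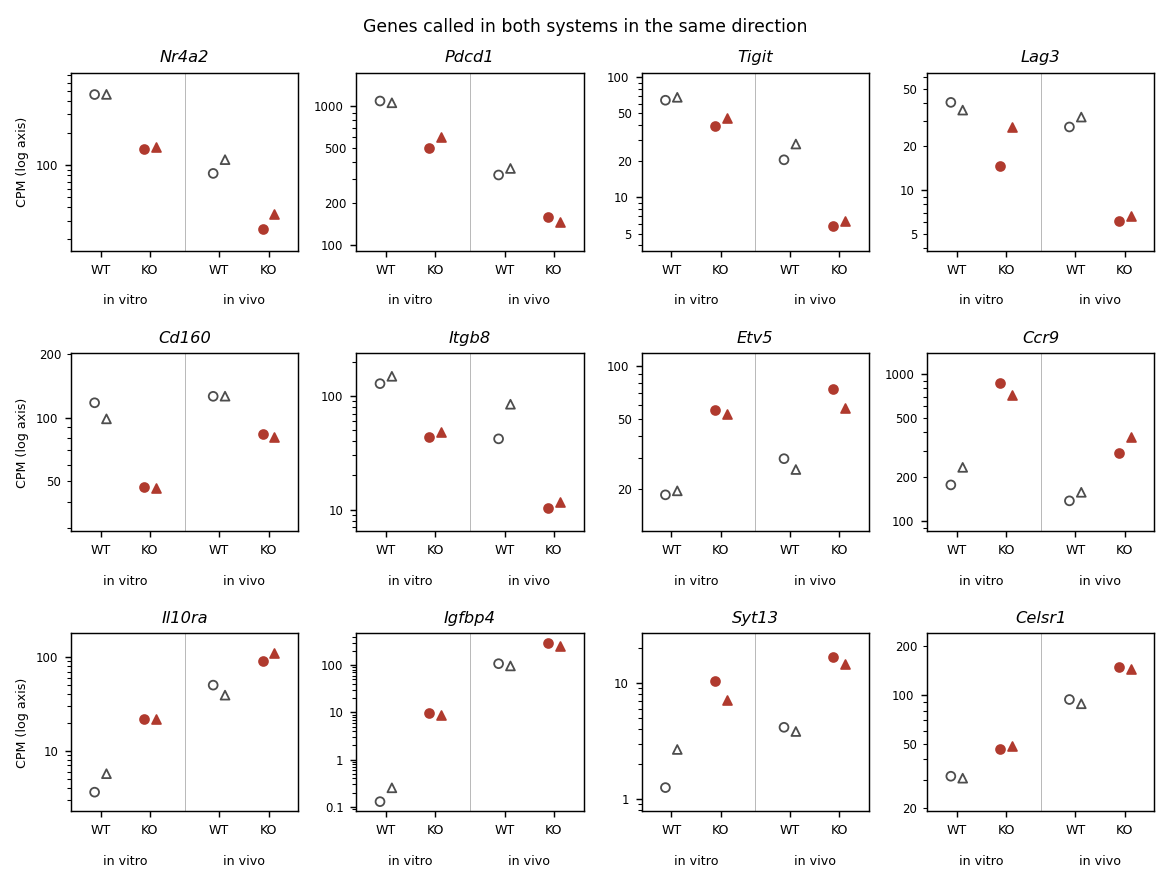
CPM on a log axis for 12 genes called in the same direction in both systems, with open symbols for the WT label, filled symbols for the KO label, circles for replicate 1 and triangles for replicate 2. In every panel the KO libraries lie on the same side of the WT libraries in vitro and in vivo, below for Nr4a2, Pdcd1, Tigit, Lag3, Cd160 and Itgb8 and above for the others.

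Many genes of cell division rose under the KO label in vitro, and 1 gene of both lists, Kif23, rose in vivo. Of 29 DNA replication genes tested, 23 rose in vitro and 0 fell (20.5% of all genes rose), and 0 passed in vivo (1.06% of all genes passed). The sign was the same in both systems for 28 (96.5%, against 50.6% of all genes), with a median of 0.61 in vitro and 0.56 in vivo. The per-library medians in vivo were 0.19 and -0.19 in WT-labelled and 0.82 and 0.27 in KO-labelled libraries, so that the KO replicates stood further apart than in vitro (0.65 and 0.59). Only Prim1, a primase subunit, had a called difference (-0.76, SE 0.22, adjusted p = 0.0362). Lig1, the replicative DNA ligase, was at 24.3 and 24.4 against 69.8 and 62.2 CPM in vitro and 68.7 and 47.0 against 108 and 73.3 in vivo. Of 30 mitosis and spindle genes 13 were tested and 17 fell below the FPKM filter. Among the 13, 9 rose in vitro and 1 in vivo (median 0.69 in vitro and 1.22 in vivo). The sign was the same in both systems for 11, against 50.6% of all genes. In vivo 12 of 13 had KO libraries above WT libraries, against 2031 of all 9364 genes. The proliferation marker Mki67 stood at 1.78 in vitro and 1.33 in vivo, and Top2a at 1.26 and 1.36. Kif23, a kinesin of cytokinesis, was called in vivo and not in vitro, at 13.1 and 14.2 against 16.0 and 14.8 CPM in vitro and 21.2 and 16.5 against 51.6 and 40.0 in vivo (difference 1.10, SE 0.23, adjusted p = 0.00929). Without KO replicate 2 in vivo 13 replication and 12 mitosis genes rose in vivo. B cell, myeloid and Rag1 and Dntt transcripts were highest in that remaining KO library, and their part in the result was not tested.

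In the opposite class all 12 genes rose in vitro and fell in vivo. In vitro Kit and Arhgef40 were below an FPKM of 1 in both WT libraries and entered through the KO libraries alone. Arhgef40 also entered in vivo through the WT libraries alone. Kit, the receptor for stem cell factor (chromosome 5, 75574916 to 75656722), was at 6.13 and 9.14 CPM in WT-labelled and 25.9 and 17.2 in KO-labelled libraries in vitro. In vivo it was at 102 and 180.0 and 34.3 and 34.9. The KO libraries of the systems lay closer to each other than the WT libraries, which were more than 10-fold apart. Kit rose by 1.52 (SE 0.22, adjusted p = 0.000304) in vitro and changed by -2.05 (SE 0.26, adjusted p = 0.0195) in vivo, a difference of -3.54 (SE 0.40, adjusted p = 0.000694). Kit is also a marker of early DN thymocytes. Their 9 markers, Kit included, summed to 480 and 515 CPM in WT-labelled and 452 and 475 in KO-labelled libraries in vivo. Kit itself made up 99.9 and 179 CPM of the WT sums and 33.3 and 33.4 of the KO sums. The sum is therefore not separate from its fall, and the part of the other markers in its change was not tested.

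Id3, the inhibitor of E proteins that is induced by TCR signals (chromosome 4, 136143497 to 136145755), was at 241 and 224 against 349 and 441 CPM in vitro and at 149.6 and 172 against 87.2 and 98.3 in vivo. Its groups did not overlap in either system and moved by 0.77 (SE 0.11, adjusted p = 0.000283) and -0.81 (SE 0.12, adjusted p = 0.0352), with a difference of -1.56 (SE 0.18, adjusted p = 0.000694). Its relative Id2 rose in vitro, from 3.80 and 5.46 to 17.9 and 15.7 CPM, and was at 771 and 506 against 748 and 737 in vivo (difference -1.67, SE 0.30, adjusted p = 0.00491). Ubash3b, a phosphatase that dampens TCR signalling, was at 73.7 and 83.9 against 92.6 and 104 CPM in vitro and 232 and 254 against 149 and 131 in vivo. It was the single member of the feedback list with a called difference, -1.12 (SE 0.15, adjusted p = 0.00142).

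Prr5l, which binds mTOR complex 2, showed the largest fall in vivo of the class, at 9.93 and 11.6 against 18.4 and 16.2 CPM in vitro and 56.7 and 82.0 against 10.2 and 10.9 in vivo (difference -3.41, SE 0.26, adjusted p = 0.000151). Irs2, an adaptor of insulin and cytokine receptors, was at 16.9 and 15.4 against 21.5 and 21.8 and 46.7 and 44.8 against 27.5 and 29.3, a difference of -1.11 (SE 0.15, adjusted p = 0.00142). Art2b, a surface ADP-ribosyltransferase of T cells, was at 29.2 and 31.3 against 52.0 and 52.8 in vitro and 59.4 and 87.5 against 15.0 and 19.5 in vivo, a difference of -2.88 (SE 0.25, adjusted p = 0.000223). These 3 genes share the pattern of small, tight rises in vitro and larger falls in vivo. Emb, an immunoglobulin-family adhesion protein, moved by 1.02 and -0.79 (difference -1.80, SE 0.16, adjusted p = 0.000271), and Fcrl1, an Fc receptor-like protein, by 0.40 and -1.07 (difference -1.45, SE 0.17, adjusted p = 0.000694). Selenop, a selenium carrier, moved by 0.58 and -1.04, Syt11 by 0.47 and -0.98, Susd2 by 0.57 and -1.74, and Arhgef40 by 1.05 and -1.44. In vitro Susd2 and Syt11 passed narrowly, with adjusted p-values of 0.0495 and 0.0491. The difference was called for all 12 in every alternative that tested them, while without WT replicate 2 in vivo the in vivo fall of 4 was still called and without KO replicate 1 in vivo that of 9. Other alternatives gave longer lists with both directions, 46 genes with DESeq2, of which 35 rose and 11 fell in vitro.

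**Figure D3:**
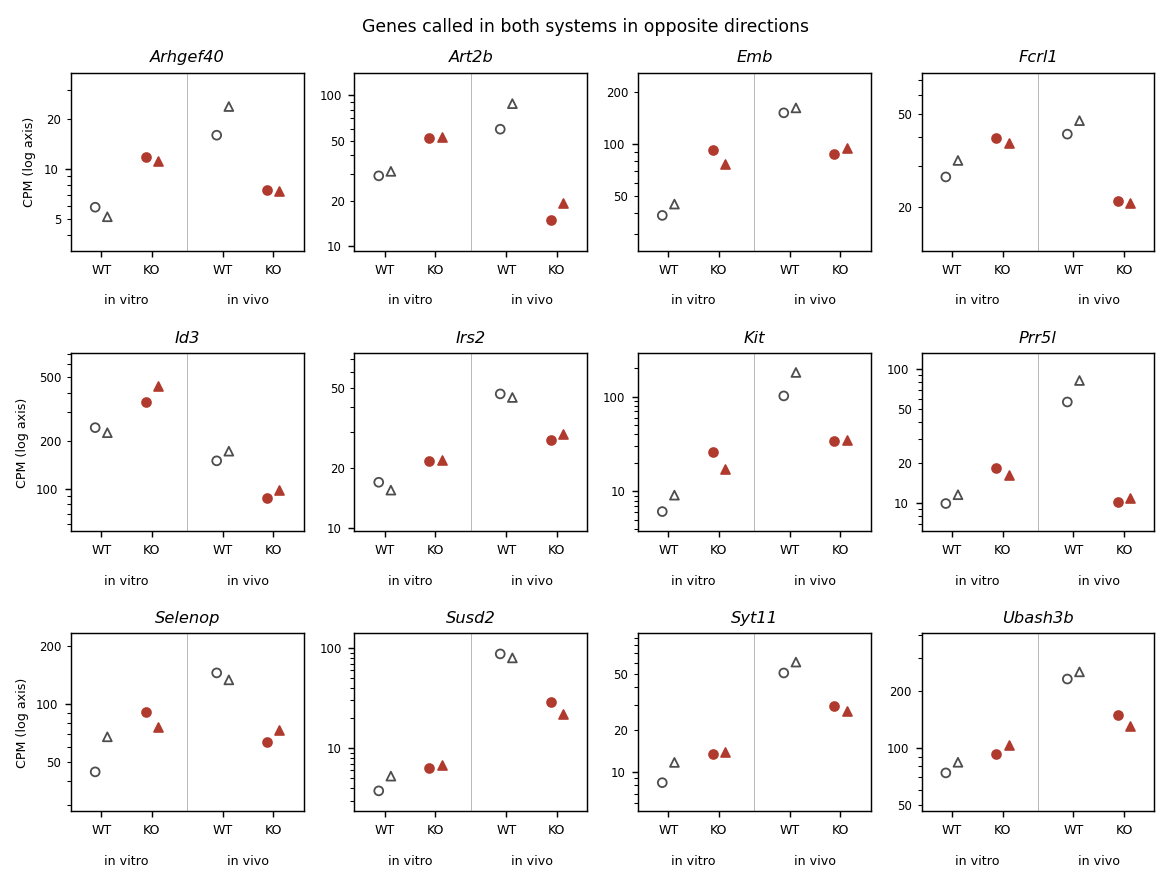
CPM on a log axis for the 12 genes called in opposite directions, with open symbols for the WT label, filled symbols for the KO label, circles for replicate 1 and triangles for replicate 2. In each panel the KO libraries lie above the WT libraries in vitro and below them in vivo.

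The in vitro only class held 596 genes that rose and 493 that fell in vitro. Among the lists examined the pattern was clearest in egress and late maturation genes. Of 26 listed genes 22 were tested. In vitro 17 rose and 0 fell, against 20.5% and 17.9% of all genes. In vivo 0 passed, against 1.06% of all genes. For 16 (72.7%, against 9.81% of all genes) the change was lower in vivo. The median was 0.83 in vitro and -0.06 in vivo. The 16 became 10 without WT replicate 1 in vitro. Klf2, the transcription factor that switches on egress genes (chromosome 8, 72319033 to 72321656), was at 25.2 and 33.6 against 138 and 135 CPM in vitro and at 293 and 274 against 227 and 262 in vivo. S1pr1, the receptor for exit into blood, was at 15.7 and 22.2 against 103 and 93.3 in vitro and 107 and 162 against 80.9 and 139 in vivo. For both genes the KO libraries in vitro lay above the WT libraries with no overlap and, for S1pr1, within the in vivo range, where its labels overlapped. For Klf2 they stayed below all in vivo libraries. Klf2 moved by 2.23 (SE 0.12, adjusted p = 6.46e-07) in vitro and -0.23 (SE 0.11, adjusted p = 0.48) in vivo, and the differences were -2.43 (SE 0.18, adjusted p = 0.000151) for Klf2 and -2.68 (SE 0.36, adjusted p = 0.0014) for S1pr1. Il7r, the interleukin-7 receptor, differed by -1.76 (SE 0.28, adjusted p = 0.00286). Among the GTPases of the immunity-associated family, Gimap4 moved by 1.71 and -0.05 and Gimap8 by 0.56 and -0.29.

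Members with a lower change in vivo, 9.81% of all genes, were also counted in lists of adhesion, chemotaxis, interferon response, antigen presentation and the cytoskeleton. Among all genes 20.5% rose and 17.9% fell in vitro, 1.06% passed in vivo and 6.57% had a change higher in vivo. Of 13 integrin and adhesion genes tested 9 rose and 1 fell in vitro, 0 passed in vivo, and 6 were lower and 1 higher in vivo (median 0.69 in vitro and 0.13 in vivo). The alpha E integrin Itgae was at 6.82 and 6.98 against 67.7 and 54.8 CPM in vitro and 615 and 415 against 809 and 709 in vivo, a difference of -2.59 (SE 0.26, adjusted p = 0.000503), and its partner Itgb7 differed by -2.20 (SE 0.26, adjusted p = 0.000791). Of 10 chemoattractant receptors tested of 16, 7 rose in vitro, 1 (Ccr9) in vivo, and 5 were lower in vivo (median 1.52 in vitro and 0.28 in vivo). The 5 became 3 without WT replicate 1 or either KO library in vitro. Cxcr6 differed by -2.01 (SE 0.28, adjusted p = 0.00157) and Gpr18 by -1.85 (SE 0.26, adjusted p = 0.00174). Of 20 interferon-stimulated genes tested 14 rose and 0 fell in vitro, 0 passed in vivo, and 9 were lower in vivo (median 0.82 in vitro and 0.13 in vivo); they became 5 without WT replicate 1 in vitro. The sensor Zbp1 was at 7.47 and 9.84 against 29.0 and 29.4 in vitro and 167 and 159.6 against 161 and 185 in vivo. Of 20 MHC class I presentation genes 13 rose and 2 fell in vitro, and 3 were lower and 2 higher in vivo, with the transactivator Nlrc5 at -1.64 (SE 0.26, adjusted p = 0.00289). Of 23 cytoskeletal and annexin genes 14 rose and 1 fell in vitro and 11 were lower in vivo (median 0.56 in vitro and 0.07 in vivo), or 6 without WT replicate 1 in vitro. The annexin Anxa6 was at 61.8 and 68.9 against 326 and 314 in vitro and 718 and 582 against 683 and 772 in vivo, a difference of -2.13 (SE 0.17, adjusted p = 0.000151).

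Lists of lineage, Notch, TGF-beta and cytokine regulators also held members with a lower change in vivo, set against 9.81% of all genes. The shares of all genes were 20.5% risen and 17.9% fallen in vitro, 1.06% passing in vivo and 6.57% with a change higher in vivo. Of 17 CD4 and CD8 lineage factors 13 rose and 3 fell in vitro, 0 passed in vivo and 6 were lower in vivo. Runx3, the CD8-lineage and cytotoxic regulator, was at 1.86 and 2.22 against 9.37 and 11.1 CPM in vitro and 381 and 321 against 405 and 392 in vivo. Its in vitro KO libraries stood 4-fold or more above WT but far below either label in vivo, and the difference was -2.16 (SE 0.21, adjusted p = 0.000426). Runx3 did not reach an FPKM of 1 in all 8 libraries, and its smallest difference over the alternatives was -0.904. Zbtb7b, the gene of the ThPOK factor of the CD4 lineage, had 7 counts in WT-labelled and 279 in KO-labelled libraries in vitro, 41.4 times as many after scaling (95% counting interval 19.8 to 103.9), and was at 221 and 212 against 253 and 355 CPM in vivo. Gata3 was called in vitro (1.65) and stood at 0.58 (SE 0.10, adjusted p = 0.0508) in vivo, with a difference of -1.05 (SE 0.13, adjusted p = 0.000906). Lfng, a Notch-modifying glycosyltransferase, was at 4.32 and 6.16 against 30.5 and 27.4 in vitro and 264 and 237 against 232 and 240.2 in vivo, a difference of -2.58 (SE 0.19, adjusted p = 0.000151). It belongs to the list of E proteins, Id and Notch, of which 9 were tested, 5 rose and 1 fell in vitro, 1 fell in vivo and 4 were lower in vivo. Of 15 TGF-beta pathway genes 9 rose and 5 fell in vitro, 1 (Itgb8) fell in vivo and 5 were lower in vivo, or 3 without WT replicate 1 or KO replicate 2 in vitro and 8 without WT replicate 1 in vivo. The inhibitory SMAD gene Smad7 was at 16.6 and 20.7 against 65.4 and 61.7 in vitro and 118 and 112 against 108 and 123 in vivo, and Smad3 differed by -1.61 (SE 0.13, adjusted p = 0.000151). Of 30 cytokine receptor and JAK-STAT genes 13 rose and 3 fell in vitro, 1 rose (Il10ra) and 1 fell (Il6st) in vivo, and 8 were lower and 2 higher in vivo. The 8 became 3 without WT replicate 1, 4 without KO replicate 1 and 5 without KO replicate 2 in vitro, and 5 without KO replicate 1 in vivo. The interleukin-12 receptor chain Il12rb1 differed by -1.96 (SE 0.23, adjusted p = 0.000783).

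The list of genes described in the literature as BCL6-repressed overlaps the lists above, sharing Klf2, S1pr1, Runx3 and Il7r with them, and gave a similar count. Of 33 tested, 16 rose and 6 fell in vitro, 1 (Pdcd1) fell and 0 rose in vivo, and 14 were lower and 3 higher in vivo (median 0.38 in vitro and 0.09 in vivo). For this list and the next, 20.5% of all genes rose and 17.9% fell in vitro. In vivo 1.06% of all genes passed, and the change was lower in vivo for 9.81% and higher for 6.57%. Of 12 IEL precursor genes tested of 22, 6 rose and 5 fell in vitro, 1 rose (Ccr9) and 1 fell (Cd160) in vivo, and 5 were lower and 3 higher in vivo. Most other members of that list were listed in vivo only, among them Tbx21, Gzma and Gzmb. Of the 15 type 17 and interleukin-1 receptor genes 3 were tested, and Il23r has a row in vivo only.

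For genes called in vitro only, the in vivo libraries of both labels mostly lay beyond the in vitro WT libraries on the side to which the KO libraries moved. Of the 596 that rose, 503 (84.4%) had all 4 in vivo libraries above both in vitro WT libraries, against 38.1% of all tested genes. Of the 493 that fell, 423 (85.8%) had all 4 below, against 38.6%. The class was picked by a low or a high in vitro WT level relative to KO, which favours such an order, and vendor and system cannot be told apart. Correlations of log2 CPM across genes, between libraries that differ in vendor, were 0.818 to 0.839 between in vitro WT and in vivo WT libraries and 0.882 to 0.890 between in vitro KO and in vivo WT libraries. Of the 12 opposite genes 10 lay nearer to the in vivo mean under the KO label in vitro than under the WT label, against 65.7% of all genes.

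**Figure D4:**
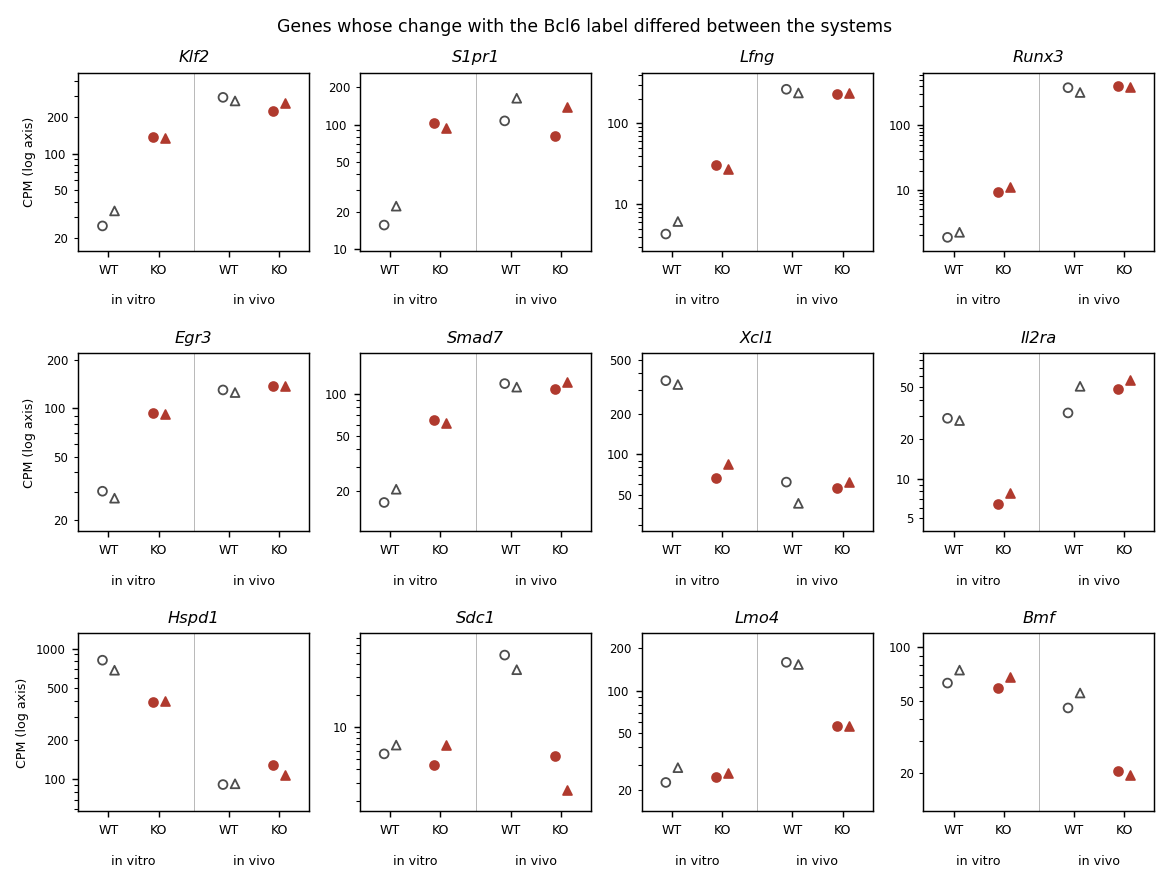
CPM on a log axis for 12 genes whose change differed between systems, with open symbols for the WT label, filled symbols for the KO label, circles for replicate 1 and triangles for replicate 2. Klf2, S1pr1, Lfng, Runx3, Egr3 and Smad7 rose and Xcl1 and Il2ra fell in vitro with labels close together in vivo. Hspd1 fell in vitro, and its KO libraries lay above its WT libraries in vivo without a call there. Sdc1, Lmo4 and Bmf fell in vivo with labels close together in vitro.

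Lists of protein folding, growth and metabolism held more falls than rises in vitro, where 17.9% of all genes fell and 20.5% rose. None of their tested members passed in vivo, where 1.06% of all genes passed, a share at which such lists hold few calls or none. Of 19 heat shock chaperones tested of 24, 11 fell and 0 rose in vitro, 0 passed in vivo, and 9 (47.4%, against 6.57% of all genes) had a change higher in vivo (median -0.42 in vitro and 0.15 in vivo); they became 5 without WT replicate 1 or KO replicate 1 in vitro. Medians per library were -0.39 and -0.39 for the KO label in vitro and 0.20 and 0.20 in vivo, relative to the WT mean of each system. Hspd1, the mitochondrial chaperonin HSP60, was at 814 and 682 against 391 and 400.2 CPM in vitro and 91.5 and 92.7 against 129 and 108 in vivo. The KO libraries were lower in vitro and higher in vivo without overlap, and the difference was 1.28 (SE 0.16, adjusted p = 0.00102), with an in vivo change of 0.35 (SE 0.12, adjusted p = 0.253) that did not pass. Hsp90aa1 differed by 1.32 (SE 0.16, adjusted p = 0.000889), Hspa9 by 1.04 (SE 0.13, adjusted p = 0.0011) and the cochaperone Stip1 by 0.81 (SE 0.12, adjusted p = 0.00258). The inducible Hspa1a and Hspa1b have a row in vivo only and were not tested here.

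Of 22 genes of the Myc network and amino acid transport 12 fell and 3 rose in vitro, 0 passed in vivo, and 8 were higher and 1 lower in vivo (median -0.29 in vitro and 0.03 in vivo); the 8 became 5 without WT replicate 1 or KO replicate 1 in vitro. The nucleolar genes Ncl, Npm1, Nop56 and Nop58 differed by 0.99, 0.97, 0.74 and 0.87, each called, and Gnl3, a nucleolar GTPase, by 1.05 (SE 0.13, adjusted p = 0.000829). Of 29 sterol and fatty acid synthesis genes 8 fell and 1 rose in vitro, 0 passed in vivo and 10 were higher in vivo (median -0.17 in vitro and 0.19 in vivo); they became 3 without WT replicate 1 or KO replicate 2 in vitro or without KO replicate 1 in vivo, and 5 without KO replicate 1 in vitro. Sqle, squalene epoxidase, was at 136 and 112 against 92.0 and 92.9 CPM in vitro and 7.83 and 7.42 against 18.2 and 11.8 in vivo. Its KO libraries were below WT in vitro and above WT in vivo, a difference of 1.40 (SE 0.25, adjusted p = 0.00451) with an in vivo change of 0.96 (SE 0.23, adjusted p = 0.123). Of 49 nuclear-encoded respiratory chain genes 29 fell and 0 rose in vitro and 10 were higher in vivo (median -0.26 in vitro and 0.03 in vivo). That count was 1 without WT replicate 1 or KO replicate 1 in vitro and without KO replicate 1 in vivo, and 3 or 4 without KO replicate 2 in vivo, KO replicate 2 in vitro or WT replicate 2 in vivo. Of 60 cytosolic ribosomal proteins 11 fell in vitro, close to the share over all genes, and 2 were higher in vivo. Of 26 glycolysis and hypoxia genes 10 fell and 3 rose in vitro, 0 passed in vivo, and 3 were higher and 1 lower in vivo. Beside these lists, 17.9% of all genes fell and 20.5% rose in vitro, 1.06% passed in vivo, and 6.57% were higher and 9.81% lower in vivo.

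The genes that fell most in vitro within that class included effector and cytokine genes. Xcl1, a chemokine of activated T cells (chromosome 1, 164931644 to 164935527), was at 351 and 329 against 66.3 and 84.7 CPM in vitro and 62.4 and 43.4 against 56.2 and 62.7 in vivo. Il2ra, the high-affinity interleukin-2 receptor chain, was at 28.8 and 27.7 against 6.41 and 7.75 in vitro and 31.6 and 50.4 against 48.5 and 56.4 in vivo. Both fell 3-fold or more in vitro with the labels overlapping in vivo, and the differences were 2.34 (SE 0.23, adjusted p = 0.000448) for Xcl1 and 2.34 (SE 0.28, adjusted p = 0.000851) for Il2ra. The cytotoxic granule gene Nkg7 differed by 1.83 (SE 0.26, adjusted p = 0.00174), Nfix by 1.93 (SE 0.31, adjusted p = 0.00329), Stx11 by 1.43 (SE 0.29, adjusted p = 0.00908) and Col9a3 by 1.52 (SE 0.29, adjusted p = 0.00695). Gfod1, Gpr171 and Mdfic fell in vitro and stood at 0.37, 0.30 and 0.29 in vivo without passing, with differences of 1.61 (SE 0.17, adjusted p = 0.000654), 1.25 (SE 0.14, adjusted p = 0.000694) and 1.40 (SE 0.15, adjusted p = 0.000694). Risers of the same class with the largest in vitro changes were Tlr1 (3.20, difference -3.22, SE 0.28, adjusted p = 0.000228), the adhesion scaffold Lpp (3.04, difference -2.56, SE 0.33, adjusted p = 0.0011), Sema4a (2.61, difference -2.36, SE 0.25, adjusted p = 0.000654) and Grifin, which was at most 4.26 CPM in any library. These risers and Nfix did not reach an FPKM of 1 in all 8 libraries, and their sizes depend on the fit. Over the alternatives the smallest differences were -1.01 for Tlr1, -0.865 for Lpp, -1.64 for Sema4a, -1.99 for Grifin and 0.858 for Nfix.

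Genes called in vivo only were 19 that fell and 3 that rose. Sdc1, the proteoglycan syndecan-1 (chromosome 12, 8771323 to 8793715), was at 5.61 and 6.79 against 4.45 and 6.83 CPM in vitro and 48.0 and 35.0 against 5.38 and 2.58 in vivo. Lmo4, a LIM-domain adaptor of transcription factors, was at 22.5 and 28.6 against 24.4 and 26.2 in vitro and 159 and 154 against 56.2 and 56.6 in vivo. Bmf, a pro-apoptotic BH3-only protein, was at 63.3 and 74.8 against 59.1 and 68.1 and 46.0 and 55.7 against 20.6 and 19.6. In all 3 the labels overlapped in vitro, and the KO libraries lay far below the WT libraries in vivo. Sdc1 changed by -3.40 (SE 0.30, adjusted p = 0.00659) in vivo with a difference of -3.28 (SE 0.43, adjusted p = 0.0011), Lmo4 by -1.49 (SE 0.09, adjusted p = 0.00572) with -1.47 (SE 0.16, adjusted p = 0.000694), and Bmf by -1.36 (SE 0.14, adjusted p = 0.00996) with -1.23 (SE 0.18, adjusted p = 0.00226). Slc27a2, a fatty acid transporter, differed by -1.79 (SE 0.29, adjusted p = 0.00343), Bnip5 by -1.51 (SE 0.24, adjusted p = 0.00295) and the sulfotransferase Chst3 by -1.47 (SE 0.31, adjusted p = 0.0101), a call lost without WT replicate 1 in vitro. Sdc1 is also a plasma cell marker; B cell markers summed to 319 and 94.2 against 886 and 307 CPM in vivo, and their part in its change was not tested.

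The 3 risers were Endou, Kif23 and the phosphatase Ptpn13 (difference 0.81, SE 0.16, adjusted p = 0.00731). Endou, an endoribonuclease listed with double-positive thymocyte genes, was at 4.49 and 6.22 against 5.75 and 4.99 CPM in vitro and 12.9 and 9.81 against 55.3 and 29.5 in vivo. The difference of 1.88 (SE 0.42, adjusted p = 0.0136) was lost without WT replicate 2 or KO replicate 2 in vitro. Dntt, the terminal transferase of rearranging thymocytes, was at 11.3 and 12.8 against 6.23 and 5.67 in vitro, a fall, and at 34.9 and 20.8 against 152 and 71.3 in vivo, with an in vivo change of 1.99 (SE 0.37, adjusted p = 0.0634) and a difference of 3.01 (SE 0.49, adjusted p = 0.00316). Of 19 double-positive thymocyte genes tested, 9 rose and 3 fell in vitro (20.5% and 17.9% of all genes), and 2 rose in vivo (0.192%). For 3 the change was higher and for 4 lower in vivo (6.57% and 9.81% of all genes). Double-positive markers summed to 311 and 373 CPM in WT-labelled and 477 and 542 in KO-labelled libraries in vivo, and to 108 to 147 in vitro. Dntt is itself 1 of these markers, at 34.2 and 20.8 CPM of the WT sums and 147 and 68.2 of the KO sums in vivo. The part of the other markers in these genes was not tested.

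The share of members with a called difference in the remaining lists ran from 0 in effector transcription factors to 33.3% in cytotoxic effector and chemokine genes, against 16.4% of all genes. It was 30.8% in pro-survival, 25% in costimulatory and 21.4% in Toll pathway genes. Shares of all genes to set beside the counts below were 20.5% risen and 17.9% fallen in vitro, and 6.57% higher and 9.81% lower in vivo. Of 23 proximal TCR signalling genes 12 rose and 1 fell in vitro, 0 passed in vivo and 1 (Grap2, -0.98) was lower in vivo. Of 16 costimulatory receptors and TRAFs 5 rose and 3 fell in vitro, and 3 were lower and 1 (Traf1, 1.33) higher in vivo. Of 13 pro-survival genes 3 rose and 4 fell in vitro, and 3 were lower and 1 higher in vivo, with Bcl2 at -1.01 (SE 0.21, adjusted p = 0.00966), a call lost without WT replicate 1 or KO replicate 1 in vitro. Of 18 pro-apoptotic genes 6 rose and 4 fell in vitro, Bmf fell in vivo and 2 were lower in vivo, with Bcl2l11 at -0.18 (95% interval -0.74 to 0.38, adjusted p = 0.672). Of 9 cytotoxic effector and chemokine genes 5 rose and 4 fell in vitro, and 2 were higher and 1 lower in vivo. Of 6 effector transcription factors 3 fell in vitro and 0 differed. Of 18 cell cycle brakes and checkpoint genes 8 rose and 1 fell in vitro and 3 were lower in vivo. Of 14 Toll pathway genes 5 rose and 1 fell in vitro and 3 were lower in vivo. Of 16 genes of BCL6 and its corepressors 6 rose and 1 fell in vitro and 2, Bcl6 and Hdac4 (-0.60), were lower in vivo. In none of these lists other than the pro-apoptotic one did a member pass in vivo. At a share of 1.06% over all genes, lists of this size hold few calls or none.

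**Figure D5:**
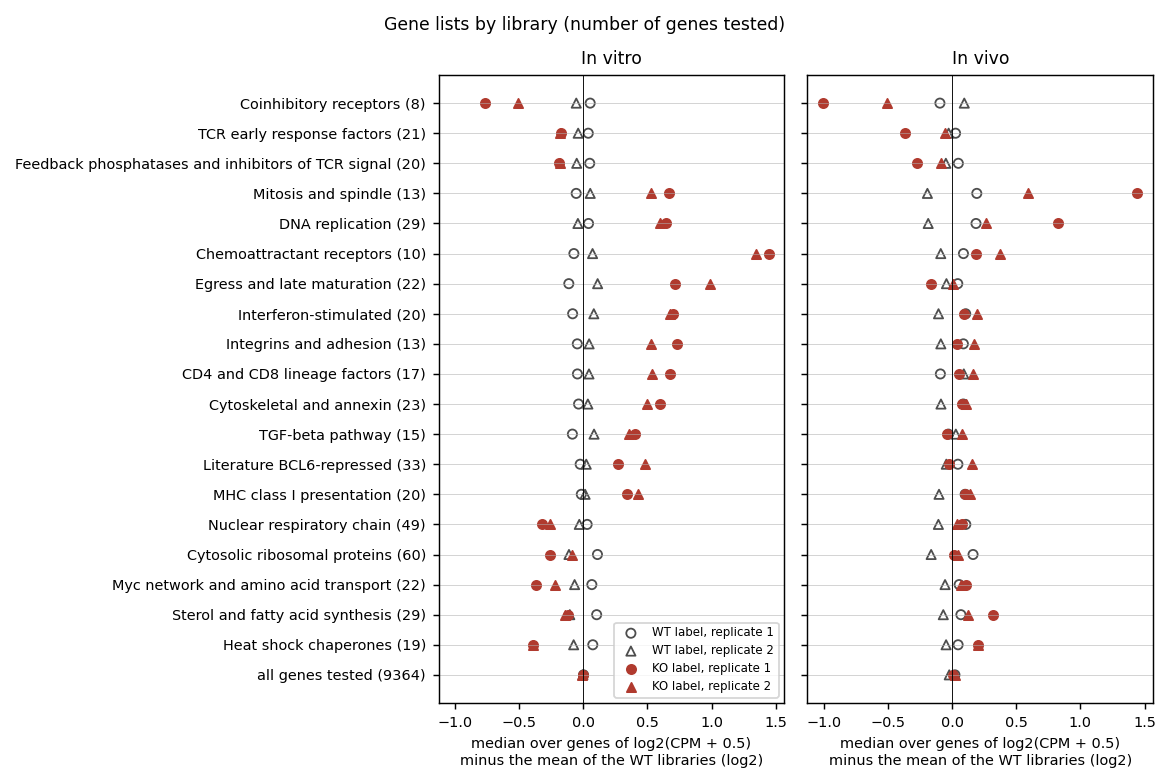
For 19 gene lists and all genes tested, the median over genes of log2(CPM + 0.5) minus the mean of the WT libraries of the same system, with 1 symbol per library (open WT label, filled KO label, circles replicate 1, triangles replicate 2). Coinhibitory receptors lie left of 0 and DNA replication right of 0 under the KO label in both panels, egress genes lie right of 0 in vitro and at -0.16 and 0.01 in vivo, and heat shock chaperones lie left of 0 in vitro and right of 0 in vivo.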

How the data were processed

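RNA from 8 libraries in 4 groups of 2 was measured by RNA-seq, and 1 table per system was deposited, with raw counts per gene and FPKM (fragments scaled by gene length and library size) side by side. Per the submitters' processing notes the tools used were Trim Galore 0.4.4, Bowtie2, featureCounts, Subread, RSEM and DESeq2, on mm10. The annotation, the strand setting and the tool behind each column were not given in the sources used here, so reads of overlapping or antisense genes may be shared. The deposited counts were used for all tests and the deposited FPKM values for the filter and for alternatives. In each table the lowest mean count of a row is 5, so a gene with a row in 1 system may be low in the other.

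Genes were tested with edgeR 4.0.16 (quasi-likelihood, TMM scaling) in R 4.3.3: each system on its own 4 libraries, and the difference in vivo minus in vitro on all 8, as the interaction of label and system. P-values were adjusted over 9364 genes by the Benjamini-Hochberg method. SEs were computed as the absolute log2 fold change divided by the square root of F. CPM was computed from TMM-scaled totals in gene results and from plain totals in marker sums. Counting intervals are exact 95% binomial intervals and cover counting error only. The scripts were tested on simulated data.

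The members, the 34 gene lists and the marker lists were chosen with earlier results of these data known. The rule for named genes took 31 fixed genes, the 5 risen and 5 fallen genes called in both systems with the largest smaller change, up to 5 opposite genes of each sign by smallest adjusted p of the difference, the 5 of each direction with the largest change called in 1 system only, the 5 of each sign with the smallest adjusted p of the difference, and up to 4 members of each list by p of the difference. Other names in the text were chosen after their values were seen. Other size factors, DESeq2 1.42.0, limma 3.58.1, filters, pseudocounts of 1 and 0.1, leaving out each library and a replicate block were the alternatives. The tables held 0 columns of other samples. Of 743 list genes 613 were tested. Gene positions are from GENCODE vM21 for 9267 genes. Promoters are from the RefSeq table of GRCm38.p6.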

Additional observations from a re-analysis of the deposited data

Results flagged for a closer look

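The results below are those for which the change with the Bcl6 label differed between the systems by the test of the difference itself (edgeR, adjusted over all genes), given as the log2 change in vivo minus that in vitro. In all, 615 genes were higher and 919 lower in vivo. The rule looked at named genes and at genes called in opposite directions, and groups of 2 libraries allow no check for single outlying samples.

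All 12 opposite genes were lower in vivo than in vitro: Kit by -3.54, Prr5l by -3.41, Art2b by -2.88, Arhgef40 by -2.47, Susd2 by -2.29, Emb by -1.80, Selenop by -1.60, Id3 by -1.56, Fcrl1 by -1.45, Syt11 by -1.43, Ubash3b by -1.12 and Irs2 by -1.11. The genes with the smallest adjusted p that were higher in vivo were Xcl1 at 2.34, Gfod1 at 1.61, Mdfic at 1.40, Gpr171 at 1.25 and Gnl3 at 1.05. Those lower in vivo besides Prr5l were Lfng at -2.58, Klf2 at -2.43, Anxa6 at -2.13 and Egr3 at -1.58.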

How the results depend on the processing

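The 1534 genes with a called difference and the 99 called in vivo kept their sign in every alternative that tested them, but the counts called moved. In vivo calls numbered 153 with upper-quartile scaling, 319 with DESeq2 and 379 when single-system effects were taken from all 8 libraries. Opposite genes numbered 23 with upper-quartile scaling, 21 with plain library totals, 46 with DESeq2 and 47 from all 8 libraries, and same-direction genes 156 with DESeq2 and 172 from all 8. In vivo only genes numbered 60 with DESeq2, 11 with limma voom and 68 from all 8 libraries. Combining the single-system estimates and SEs gave 2593 differences and 1818 in vitro only genes. With an FPKM of at least 1 required in all 8 libraries, 44 genes moved in the same direction and 10 in opposite directions. Of the calls in vivo 18.2% were rises in the fit reported and 43.6% with DESeq2; the same shares were 25.9% and 53.8% for same-direction genes, and 13.6% and 31.7% for in vivo only genes. Of opposite genes 100% had risen in vitro, and 76.1% with DESeq2. The cause was not tested.

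Leaving out 1 library at a time gave 533 to 1816 differences, 2387 to 3594 in vitro calls, 19 to 374 in vivo calls, 7049 to 7505 genes within 2-fold, 328 to 1149 in vitro only, 2 to 74 in vivo only, 4 to 64 opposite and 13 to 188 same-direction genes. The replicate numbers are not said to pair samples, and the deviations of same-numbered libraries correlated at -0.237 in vitro and 0.361 in vivo. With a replicate block 733 genes were called in vivo, 119 opposite, 324 in the same direction and 116 in vivo only. A block with crossed numbers in vitro, added after seeing the data, gave 2704 differences, 1815 in vitro only, 733 in vivo, 147 opposite, 381 same-direction and 123 in vivo only genes. For the named genes 1324 comparisons with an alternative kept the side of the threshold, 25 lost the call and 19 gained it. In 1, Avpr1a at 0.895 on log2(FPKM + 1), the sign reversed with a call. Some differences that were not called changed sign without a call, among them Epdr1 (-0.73 in the fit reported and up to 0.31), Nr4a1 (-0.15 and up to 0.26) and Syt13 (-0.24 and up to 0.26).

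The number of libraries, 2 a group, and depth both limit precision; the median SE was 0.0995 in vitro, 0.123 in vivo and 0.164 for the difference. Genes of few counts, such as Igfbp4 and Zbtb7b in vitro, have fitted changes that depend on how low values are treated.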
